A study of Homo sapiens with 6 samples.

Results

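Integrins and the proteins of the focal adhesion plaque were examined in definitive endoderm (DE) cells differentiated with or without the Src family kinase inhibitor saracatinib (SAR). The set comprised 49 genes, namely 22 integrin subunits and 27 plaque proteins, picked by gene symbol from the 40396 genes of the deposited table, and every one of them was present in it. The plaque proteins were split by role into 12 genes for integrin activation and the link to actin, 4 kinases, and 11 scaffolds and adaptors.

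RNA-seq was performed on H1 cells, an established human embryonic stem cell line, after 3 days of DE differentiation on Matrigel in medium with Activin A, to which CHIR99021 was added for the opening day. Both groups received this same regimen, and they differed in the presence (SAR) or absence (control) of 0.5 µM SAR over all 3 days. The paper names DMSO as the control of its western blots, and describes the RNA-seq controls only as cells without SAR. Each group held 3 libraries, and no source used here states whether they came from separate cultures, so the p-values measure the spread between these libraries, which may be technical. The comparison addresses how SAR changed the transcripts of adhesion genes, since the study followed focal adhesion kinase (FAK, encoded by PTK2) as a target of the drug.

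Integrins are membrane receptors made of an α and a β chain that bind extracellular matrix outside the cell. Talin and kindlin bind the cytoplasmic tail of the β chain and switch the receptor to its binding state, and talin, together with the complex of integrin-linked kinase, PINCH and parvin, connects it to actin. FAK and Src then phosphorylate scaffolds such as paxillin and the Cas proteins, which recruit Crk adaptors. In stem cells grown on Matrigel, laminin is a main ligand, read chiefly by integrin α6β1.

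The library totals behind the FPKM, inferred from the deposited values, were 18877964 to 24419937 in control and 16681280 to 18389543 with SAR. Sequencing was paired-end, so these totals and the read numbers below may count fragments. Levels are FPKM, fragments per kilobase of gene scaled to the library total. Fold changes are SAR against control on log2(FPKM + 0.1), which understates the change of low genes. Of the 14 DE markers listed, 1 of which is ITGA5, none had a mean below 1 FPKM. SOX17 (log2 fold change 1.06) and FOXA2 (1.44) were higher and CXCR4 (-0.51) was lower with SAR. The summed level of the list was 4011 to 5127 FPKM in control and 2130 to 2180 FPKM with SAR. As deposited, 4 markers were higher and 6 lower, where 23.7% and 9.55% of all genes were. With an absolute log2 fold change above 1 as well, 3 were higher and 4 lower, where 3.41% and 1.58% of all genes were. CXCR4 is not among the 4, so the markers named above do not stand for the list. The median log2 fold change of the list was -0.35 and its most negative value -1.48. After the rescaling described below, 4 were higher and 8 lower, where 13.8% and 15.5% of all genes were. Of the marker lists for other fates, 7 of 8 neural ectoderm and 7 of 9 extraembryonic markers had means below 1 FPKM. The pluripotency markers summed to 946 to 1061 FPKM in control and 1153 to 1166 FPKM with SAR, and the mesoderm and primitive streak markers to 64.0 to 66.9 and 40.8 to 52.6 FPKM. The neural ectoderm sums, which rest mostly on 1 marker, overlapped between groups, at 54.4 to 69.0 and 65.1 to 82.2 FPKM. Such sums hide single markers. The log2 fold changes of tested pluripotency markers ran from -1.30 to 0.88, and those of the 2 tested neural markers from 0.22 to 1.51. The part of these marker differences in the results was not tested. In bulk RNA, fewer cells of a type and less RNA per cell cannot be told apart.

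Of the 49 genes, 40 reached a mean of 0.5 FPKM and were tested. With SAR, 8 were higher and 11 were lower at an adjusted p-value under 0.05 by limma, and 21 passed in neither direction. Among all 16371 genes tested, 23.7% were higher and 9.55% lower, against 20% and 27.5% of the 40 tested adhesion genes. With the further requirement of an absolute log2 fold change above 1, 1 gene was higher (ITGB8) and 2 were lower (ITGA4 and PIP5K1B), where the shares over all genes were 3.41% and 1.58%. The 3 SAR libraries lay above all 3 controls for 8 genes and below them for 15 genes, against 35.5% and 15.2% of all genes.

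The median log2 fold change of the 40 genes was -0.07, and that of all genes tested was 0.12. The FPKM carried no scaling beyond each library's total, so the comparison was repeated after median-ratio rescaling, which places the median gene at 0.00. Then 6 of the adhesion genes were higher and 17 lower, where 13.8% and 15.5% of all genes were, and their median was -0.19. With the fold threshold 1 gene was higher, where 2.43% of all genes were, and 3 were lower, where 2.22% were, since NEDD9 joined the latter.

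**Figure D1:**
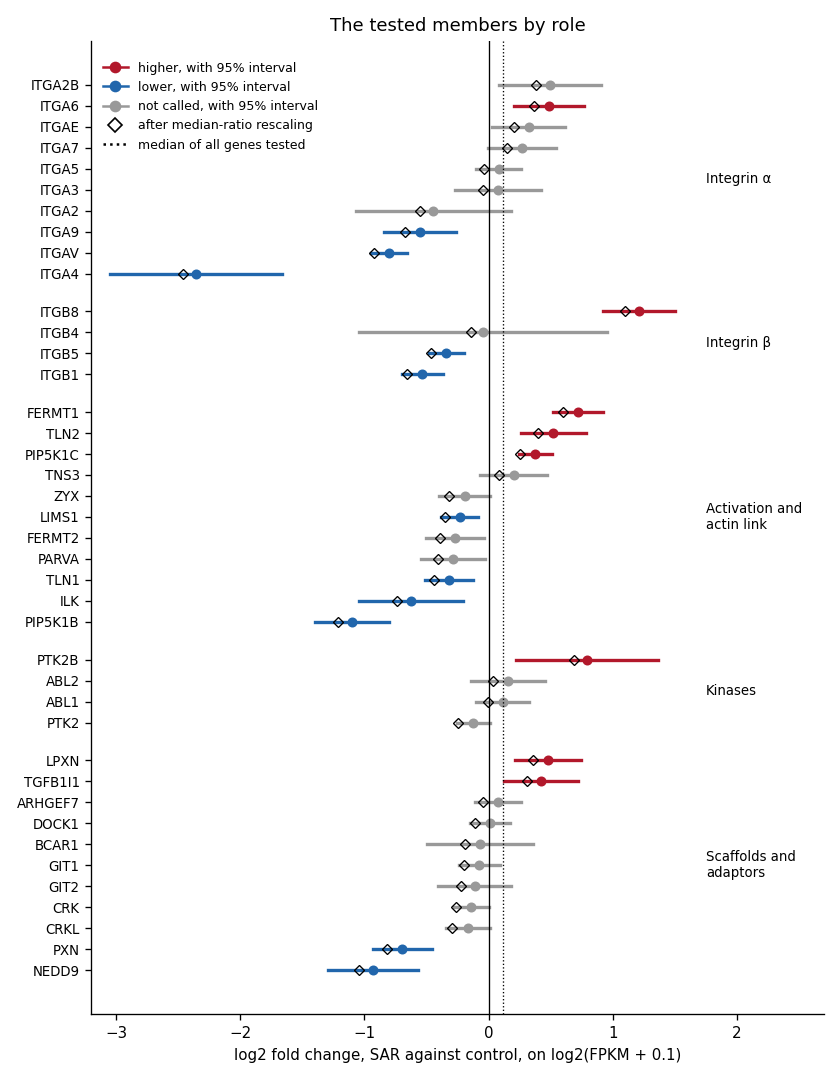
Log2 fold change (SAR against control, on log2(FPKM + 0.1)) of the 40 tested genes, grouped by role, with 95% intervals by limma (n = 3 per group). Filled points show values as deposited and open diamonds values after median-ratio rescaling; the 11 lower genes (blue) reach from ITGA4 at -2.36 to LIMS1 at -0.23, and the 8 higher genes (red) from PIP5K1C at 0.37 to ITGB8 at 1.21.

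Proximal promoters were read for the 3 genes past the fold threshold, for ITGB1, the β chain shared by most receptors, and for PIP5K1C, the paralog of PIP5K1B that changed in the opposite direction. They were taken from RefSeq on GRCh38.p14, where 39 of the 49 genes had an entry, and each is given 5′ to 3′ on the strand of its gene for the 250 bases before the start that RefSeq annotates. GENCODE 29 places other starts for some of these genes: those of ITGA4 (181457202), ITGB8 (20330702) and PIP5K1C (3700479) lie inside the windows below, and that of ITGB1 (33005792) lies far upstream of its window. Capitals mark GGAATG or its reverse complement CATTCC, the core of the site bound by TEAD factors, the DNA-binding partners of YAP, which the study also followed, and GGGCGG or its reverse complement CCGCCC, the GC box bound by Sp1-type factors. The GC box was added after the fold changes were known. The windows are chr2:181457136-181457385 (plus strand) for ITGA4, chr7:20330650-20330899 (plus) for ITGB8, chr10:32958231-32958480 (minus) for ITGB1, chr9:68704990-68705239 (plus) for PIP5K1B and chr19:3700469-3700718 (minus) for PIP5K1C.
ITGA4: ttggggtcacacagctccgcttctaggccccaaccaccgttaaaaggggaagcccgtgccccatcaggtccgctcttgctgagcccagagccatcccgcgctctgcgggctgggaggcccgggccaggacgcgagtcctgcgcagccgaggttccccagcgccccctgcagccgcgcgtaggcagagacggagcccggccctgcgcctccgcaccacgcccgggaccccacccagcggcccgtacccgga
ITGB8: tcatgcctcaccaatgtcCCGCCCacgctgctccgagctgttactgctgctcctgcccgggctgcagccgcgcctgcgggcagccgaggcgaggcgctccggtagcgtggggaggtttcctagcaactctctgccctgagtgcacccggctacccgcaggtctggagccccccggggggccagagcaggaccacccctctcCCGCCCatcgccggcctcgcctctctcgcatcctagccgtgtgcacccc
ITGB1: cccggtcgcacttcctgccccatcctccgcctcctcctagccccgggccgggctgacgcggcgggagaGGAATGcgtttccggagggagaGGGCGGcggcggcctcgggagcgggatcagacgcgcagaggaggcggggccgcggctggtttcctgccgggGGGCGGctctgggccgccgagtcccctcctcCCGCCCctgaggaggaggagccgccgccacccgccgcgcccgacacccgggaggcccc
PIP5K1B: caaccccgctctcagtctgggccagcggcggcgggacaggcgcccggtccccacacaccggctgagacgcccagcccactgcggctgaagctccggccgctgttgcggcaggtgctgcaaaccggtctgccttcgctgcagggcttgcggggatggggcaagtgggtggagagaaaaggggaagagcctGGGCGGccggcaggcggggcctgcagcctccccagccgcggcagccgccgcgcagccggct
PIP5K1C: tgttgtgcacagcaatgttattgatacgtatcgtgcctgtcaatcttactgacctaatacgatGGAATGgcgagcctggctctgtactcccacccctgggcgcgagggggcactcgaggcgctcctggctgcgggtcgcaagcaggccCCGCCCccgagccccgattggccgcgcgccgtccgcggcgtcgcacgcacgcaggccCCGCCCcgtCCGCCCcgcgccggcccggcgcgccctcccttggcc

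GGAATG lay in the 250 bases of 4 of the 39 promoters (10.3%), against 11.9% of all 35116 promoters of the same length. The 4 were ITGB1, 182 bases upstream of its RefSeq start, PIP5K1C (187 bases), ITGA5 (82 bases) and ITGA10 (91 bases). ITGB1 was lower, PIP5K1C higher, ITGA5 not called and ITGA10 not tested. The GENCODE 29 starts of ITGA5 (54419460) and ITGA10 (145910189) lie inside the windows, so their matches are downstream of those starts. None of the 3 promoters of the genes past the fold threshold held GGAATG. The GC box lay in 20 of 39 promoters (51.3%), against 42.6% of all. It was in 7 of the 10 lower genes with an entry, 3 of the 6 higher and 8 of the 16 not called, and ITGA4 held none. The median GC content of the 39 windows was 70.8%, against 58.0% over all promoters. These are matches of letters and not sites shown to be bound.

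Among the α subunits, 10 of 14 were tested. ITGA6 rose, ITGA4, ITGAV and ITGA9 fell, and 6 passed in neither direction. Thus 10% of those tested were higher and 30% lower, where 23.7% and 9.55% of all genes were. ITGA4, the α4 chain that binds fibronectin and VCAM-1 and pairs with β1 or β7, gave 1.10, 2.31 and 1.69 FPKM in the controls and 0.191, 0.255 and 0.271 FPKM with SAR. Every SAR library thus lay far below every control, even though the controls themselves spanned more than 1 FPKM. The log2 fold change was -2.36 (95% interval -3.05 to -1.67, adjusted p = 0.00229 by limma), the most negative of the 40, and the linear means differed 7.12-fold. These levels rested on 256 to 602 reads per library in control and 34 to 53 with SAR, and with its mean below 1 FPKM the gene was not tested at a stricter minimum.

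ITGAV encodes αV, the partner of β5, β8 and several other β chains in receptors for vitronectin and other RGD ligands. Its values were 23.0, 24.7 and 23.9 FPKM in control and 13.4, 13.0 and 14.5 FPKM with SAR. The groups were tight and well apart, and the log2 fold change of -0.80 ± 0.06 (SE) had the smallest adjusted p among the 40 genes (0.000522 by limma). ITGA9, whose product pairs with β1 and is the closest relative of α4, read 5.53, 7.85 and 6.52 FPKM in control and 4.36, 4.37 and 4.61 FPKM with SAR. Its log2 fold change was -0.55 ± 0.12 (adjusted p = 0.0161 by limma), and the adjusted p was 0.0532 without control replicate 3 and 0.0527 without SAR replicate 2.

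ITGA6, the laminin-binding α6 chain and a surface marker of pluripotent cells, moved the other way. It gave 12.6, 9.96 and 12.3 FPKM in control and 14.2, 17.0 and 17.8 FPKM with SAR, with all SAR libraries above all controls. The log2 fold change was 0.49 ± 0.12 (adjusted p = 0.0224 by limma). The call was lost, with an adjusted p of up to 0.0722, without control replicate 2, SAR replicate 2 or SAR replicate 3. ITGA6, ITGA4 and ITGAV all lie on the long arm of chromosome 2, with starts at 172427354, 181457202 and 186590065 in GENCODE 29.

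The other α chains that were tested showed smaller differences. ITGA5, the fibronectin receptor chain, averaged 16.8 ± 1.33 FPKM in control and 17.8 ± 1.04 FPKM with SAR (SD, n = 3), and the 95% interval of its log2 fold change ran from -0.10 to 0.26. ITGA7, another laminin-binding chain, averaged 8.03 ± 0.703 and 9.74 ± 1.36 FPKM. ITGA2B and ITGAE had log2 fold changes of 0.50 and 0.32 with adjusted p-values of 0.0645 and 0.0860 by limma, ITGA2, a collagen-binding chain, had -0.44 (0.230), and ITGA3 had 0.08 (0.706). After rescaling, ITGA3 and ITGA5 both stood at -0.04, so their direction depended on the scaling.

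Of the 8 β subunits, 4 were tested, and ITGB8 rose while ITGB1 and ITGB5 fell. That is 25% higher and 50% lower of only 4 genes, where 23.7% and 9.55% of all genes were. ITGB8, which pairs with αV alone and binds the latent form of TGF-β, gave 0.759, 0.711 and 0.730 FPKM in control and 1.80, 1.69 and 2.01 FPKM with SAR. The groups were separated by more than the level of the gene in control. Its log2 fold change was 1.21 ± 0.12 (adjusted p = 0.00124 by limma), from 209 to 263 reads per library in control and 433 to 561 with SAR. Its obligate partner ITGAV fell in the same libraries, as did the ligand gene TGFB1, which averaged 19.4 ± 0.253 FPKM in control and 13.6 ± 0.474 FPKM with SAR.

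ITGB1 encodes β1, the partner of most α chains. Its values were 37.6, 39.9 and 39.8 FPKM in control and 25.0, 26.7 and 29.2 FPKM with SAR. No SAR library came near the controls, and the log2 fold change was -0.54 ± 0.07 (adjusted p = 0.00263 by limma). ITGB5, the vitronectin receptor chain that pairs with αV, was the most abundant of the β chains in FPKM. It averaged 69.4 ± 4.29 FPKM in control and 54.7 ± 0.983 FPKM with SAR, a log2 fold change of -0.34 (adjusted p = 0.00669 by limma). ITGB4, the β chain of hemidesmosomes, sat just above the minimum and varied most, from 0.291 to 0.932 FPKM among the controls, with an interval of -1.05 to 0.95 for its log2 fold change.

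Shares within a library do not depend on scaling between libraries, so the make-up of the integrin transcripts was described with them and without a test. The summed α transcripts averaged 77.3 ± 0.831 FPKM in control and 71.7 ± 5.08 FPKM with SAR (SD, n = 3), and the summed β transcripts 110.5 ± 4.90 and 84.8 ± 2.92 FPKM. ITGAV held 29.6% to 31.7% of the α total in the controls and 18.1% to 20.1% with SAR, and was the most abundant α chain in control only. ITGA6 held 12.8% to 16.2% and 21.3% to 23.7%, and ITGA5 20.5% to 23.6% and 24.4% to 25.5%. With SAR, ITGA5 had the largest mean α share, ahead of ITGA6 and ITGAV. With GENCODE 29 exon lengths in place of the lengths behind the FPKM, however, the SAR libraries of ITGA5 (23.7% to 24.8%) and ITGA6 (21.7% to 24.2%) overlapped, and only ITGAV (18.1% to 20.1%) stood apart below them.

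Lower in the order, ITGA7 went from a mean share of 10.4% ± 0.845 to 13.5% ± 1.01, ITGA9 from 8.58% ± 1.49 to 6.22% ± 0.292, and ITGA4 from 2.20% ± 0.780 to 0.332% ± 0.0385. The ITGA9 and ITGA7 shares overlapped in control but not with SAR. Of the β total, ITGB1 held 34.6% to 35.9% in control and 30.6% to 33.5% with SAR, ITGB5 61.8% to 64.0% and 62.6% to 65.9%, and ITGB8 0.617% to 0.720% and 1.97% to 2.31%. The shares of both kinds of chain depended on the gene length used. With GENCODE 29 lengths ITGA4 held 2.95% ± 1.04 of the α total in control and 0.447% ± 0.0516 with SAR. The length that the FPKM of ITGB1 imply was 14561 bases, against 6011 exon bases in GENCODE 29, and with the latter length ITGB1 held 56.7% ± 0.734 of the β total in control and 52.7% ± 1.73 with SAR, ahead of ITGB5. The linear ratio between the group means of a gene does not depend on its length. The added 0.1 FPKM and the minimum mean do act on the level, so the fold changes and filtering of low genes can. ITGA4, for example, averaged 2.29 FPKM in control and 0.322 FPKM with SAR at its GENCODE 29 length.

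**Figure D2:**
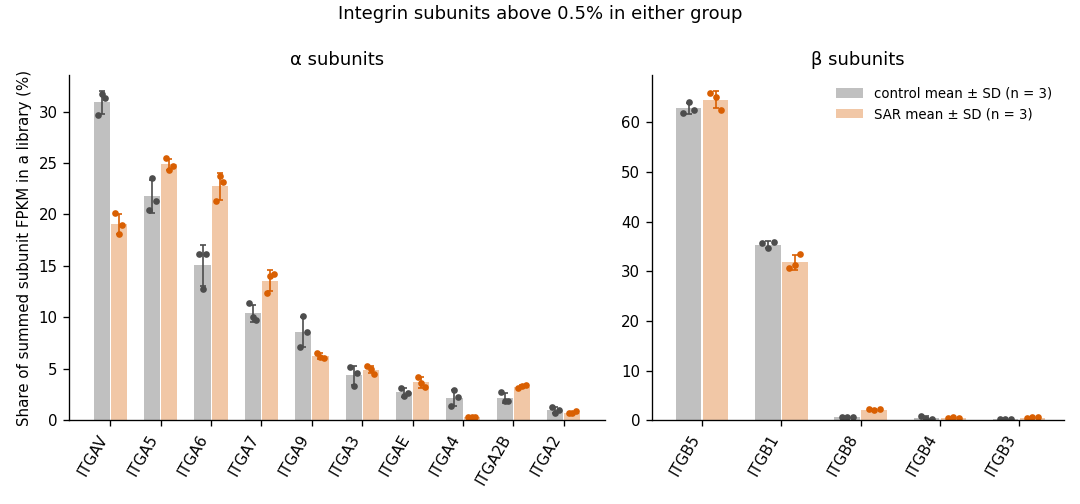
Share of each integrin subunit in the summed FPKM of all α (left) or all β (right) subunits of the same library, in percent, for subunits above 0.5% in either group; bars are means, error bars SD and points the 3 libraries of each group. ITGAV goes from 30.9% to 19.1% and ITGA6 from 15.0% to 22.7% of the α total, while ITGB5 and ITGB1 keep most of the β total.

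Of the 12 genes for integrin activation and the link to actin, 11 were tested, and 3 rose (FERMT1, TLN2 and PIP5K1C) while 4 fell (PIP5K1B, ILK, TLN1 and LIMS1). As shares these were 27.3% higher, near the 23.7% of all genes, and 36.4% lower, where 9.55% of all genes were. PIP5K1B and PIP5K1C make the lipid PI(4,5)P2, and an isoform of the latter is the form recruited to adhesions by talin. PIP5K1B gave 2.51, 2.85 and 2.42 FPKM in control and 1.20, 1.29 and 0.993 FPKM with SAR. Its groups lay far apart, and the log2 fold change was -1.10 ± 0.13 (adjusted p = 0.00177 by limma). PIP5K1C averaged 5.48 ± 0.130 FPKM in control and 7.14 ± 0.133 FPKM with SAR (SD, n = 3). Its log2 fold change was 0.37 (adjusted p = 0.00416 by limma). The promoters of both, shown above, hold the GC box, and that of PIP5K1C also holds GGAATG.

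The talins also changed in opposite directions. TLN1, the widespread talin that activates integrins, gave 15.5, 17.5 and 16.8 FPKM in control and 12.1, 13.4 and 14.4 FPKM with SAR, a log2 fold change of -0.32 ± 0.08 (adjusted p = 0.0245 by limma). TLN2 gave 6.30, 8.02 and 7.66 FPKM in control and 9.61, 10.4 and 11.6 FPKM with SAR. In each of the 2 genes the groups did not overlap, and the log2 fold change of TLN2 was 0.52 ± 0.11 (adjusted p = 0.0135 by limma). The TLN1 call was lost without control replicate 2 or 3 or SAR replicate 1 or 2 (adjusted p up to 0.0834).

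FERMT1 (kindlin-1), the kindlin typical of epithelia, gave 1.58, 1.48 and 1.65 FPKM in control and 2.59, 2.63 and 2.72 FPKM with SAR. The spread within each group was under 0.1 FPKM (SD), and the log2 fold change was 0.72 ± 0.08 (adjusted p = 0.00196 by limma). FERMT2 (kindlin-2), the more abundant kindlin, averaged 67.5 ± 7.24 FPKM in control and 55.8 ± 5.05 FPKM with SAR. Its groups overlapped and it did not pass as deposited (log2 fold change -0.27, adjusted p = 0.0727 by limma), but it passed as lower after rescaling (-0.39, adjusted p = 0.0319).

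The complex of ILK, PINCH and parvin links β chains and kindlin to actin. ILK, its pseudokinase core, gave 1.77, 1.50 and 1.44 FPKM in control and 0.774, 1.20 and 1.01 FPKM with SAR, a log2 fold change of -0.62 ± 0.18 (adjusted p = 0.0348 by limma). All SAR libraries were below all controls, but 78.5% of the exon bases of ILK lie opposite other genes, TAF10 among them, and since the strand setting of the counting is not given, the reads of these genes cannot be told apart. The ILK call was lost when any library other than SAR replicate 2 was left out (adjusted p up to 0.0941). LIMS1, which encodes PINCH1, had a log2 fold change of -0.23 (adjusted p = 0.0315 by limma, and up to 0.119 without control replicate 2 or 3 or SAR replicate 1 or 2), and PARVA (α-parvin) had a log2 fold change of -0.29 that did not pass (adjusted p = 0.0809). ZYX, a LIM protein of mature adhesions, averaged 49.5 ± 5.65 and 43.1 ± 1.74 FPKM with overlapping groups, and TNS3, a tensin, 1.68 ± 0.0661 and 1.96 ± 0.235 FPKM. PARVA and ZYX passed as lower after rescaling.

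Of the 4 kinases, PTK2B rose (25%) and none fell, where 23.7% of all genes were higher and 9.55% lower. PTK2, which encodes FAK, gave 14.1, 14.5 and 15.0 FPKM in control and 12.8, 13.3 and 13.9 FPKM with SAR. The SAR libraries were all below the controls, but the gap between the nearest libraries was small, and the log2 fold change of -0.12 (95% interval -0.25 to 0.01) did not pass (adjusted p = 0.128 by limma). After rescaling it was -0.25 with an adjusted p of 0.0219. FAK activity depends on phosphorylation, which transcript levels do not measure.

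PTK2B, which encodes PYK2, the relative of FAK, was much lower in level, at 0.767, 0.448 and 0.593 FPKM in control and 1.02, 0.923 and 1.40 FPKM with SAR. The log2 fold change was 0.80 ± 0.24 (adjusted p = 0.0427 by limma), from 86 to 132 reads in control and 123 to 202 with SAR. The call was lost after rescaling (adjusted p = 0.0662) and when any library other than control replicate 1 was left out (up to 0.114). The ABL kinases are further targets stated for SAR. ABL1 gave 12.3, 13.1 and 13.9 FPKM in control and 12.8, 14.0 and 15.8 FPKM with SAR, and ABL2 gave 1.86, 1.79 and 1.82 FPKM and 1.70, 2.19 and 2.28 FPKM. Groups overlapped in both genes, with log2 fold changes of 0.11 (interval -0.10 to 0.33) and 0.16 (-0.14 to 0.45) that did not pass, and that of ABL1 stood at -0.01 after rescaling.

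Of the 11 scaffolds and adaptors, PXN and NEDD9 fell, LPXN and TGFB1I1 rose, and 7 passed in neither direction. Each direction held 18.2% of them, where 23.7% of all genes were higher and 9.55% lower. PXN encodes paxillin, the scaffold that FAK and Src phosphorylate. It gave 11.6, 9.61 and 11.3 FPKM in control and 6.04, 6.54 and 7.32 FPKM with SAR. The highest SAR library was still well below the lowest control, and the log2 fold change was -0.70 ± 0.10 (adjusted p = 0.00368 by limma). The antisense gene PXN-AS1 and another transcript cover 12.4% of its exon bases on the opposite strand.

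The other paxillin family members rose. LPXN (leupaxin) gave 2.22, 1.84 and 1.83 FPKM in control and 3.04, 2.73 and 2.53 FPKM with SAR, a log2 fold change of 0.48 ± 0.11 (adjusted p = 0.0192 by limma). TGFB1I1 (Hic-5) gave 0.836, 0.887 and 0.824 FPKM in control and 1.14, 1.20 and 1.17 FPKM with SAR, a log2 fold change of 0.42 ± 0.13 (adjusted p = 0.0411 by limma). Both had groups without overlap, at 84 to 125 reads per library. The LPXN call was lost without control replicate 2 or 3 or SAR replicate 1 or 2 (adjusted p up to 0.0713). The TGFB1I1 call was lost when any 1 of the 6 libraries was left out (up to 0.124) and after rescaling (0.110).

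NEDD9, a Cas scaffold, gave 1.33, 1.48 and 1.52 FPKM in control and 0.694, 0.615 and 0.829 FPKM with SAR. The groups did not overlap, and the log2 fold change was -0.93 ± 0.15 (adjusted p = 0.00573 by limma) and -1.04 after rescaling. BCAR1 (p130Cas), the founding member of that family, averaged 4.43 ± 1.13 FPKM in control and 4.13 ± 0.222 FPKM with SAR with overlapping groups. The Crk adaptors, which bind phosphorylated Cas proteins, had log2 fold changes of -0.14 (CRK) and -0.17 (CRKL) that did not pass as deposited but passed as lower after rescaling. DOCK1, the Rac activator downstream of Crk, was at 12.5 ± 0.790 and 12.6 ± 0.532 FPKM. GIT1, GIT2 and ARHGEF7 (β-PIX), which together bind paxillin and act on Arf, Rac and Cdc42, had log2 fold changes between -0.11 and 0.08, none of which passed. The directions of DOCK1 and ARHGEF7 turned after rescaling.

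**Figure D3:**
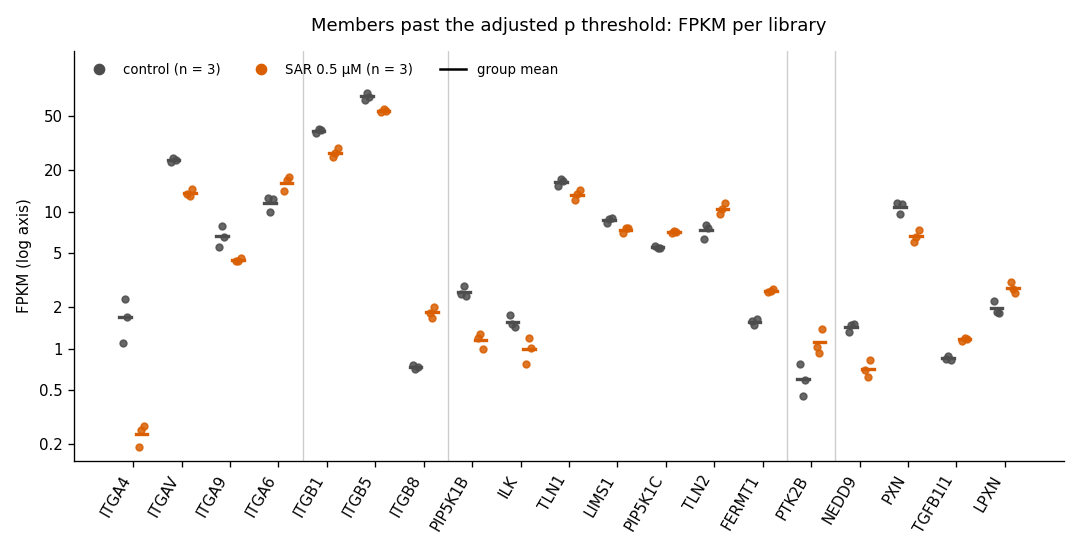
FPKM per library (log axis) of the 19 genes past the adjusted p threshold, in control (grey, n = 3) and with 0.5 µM SAR (orange, n = 3), with horizontal lines at the group means and grey verticals between roles. The 3 SAR libraries of ITGA4 lie at 0.191 to 0.271 FPKM, below its controls at 1.10 to 2.31, and those of ITGB8 at 1.69 to 2.01 FPKM, above its controls at 0.711 to 0.759.

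Since several families held a member that fell beside a relative that rose, the ratio of the 2 genes was taken within each library, which no scaling between libraries can change. The 12 pairs were chosen after the values were seen, so the ratios serve as description. In 7 pairs the control and SAR ratios did not overlap, and 5 overlapped. Each of the 7 was lower with SAR, a direction that depends on which gene was written first. Some pairs share a gene, such as PXN. No share over all gene pairs was computed. Single genes lay without overlap above the controls in 35.5% and below them in 15.2% of all genes tested. Those shares are no background for ratios of pairs chosen by their values. No test is given for the pairs, since an exact permutation test of 3 against 3 libraries cannot give a p-value below 0.1.

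PXN stood at 5.21, 5.22 and 6.18 times the level of LPXN in the controls and at 1.99, 2.40 and 2.89 times with SAR, a difference of -1.20 on the log2 scale. Against TGFB1I1 the difference was -1.17. LPXN and TGFB1I1 kept overlapping ratios, 2.08 to 2.65 in control and 2.17 to 2.66 with SAR. For the talins, TLN1 over TLN2 went from 2.46, 2.18 and 2.20 to 1.26, 1.28 and 1.25, with a spread of the SAR libraries far below the difference between groups. For the kindlins, FERMT2 over FERMT1 went from 37.6 to 49.7 in control to 20.1 to 22.7 with SAR. The largest difference was that of PIP5K1B over PIP5K1C (-1.55), from 0.446 to 0.528 down to 0.139 to 0.177. PTK2 over PTK2B differed by -1.02 and NEDD9 over BCAR1 by -0.96. The pairs ABL1 and ABL2, CRK and CRKL, GIT1 and GIT2, and TNS1 and TNS3 differed by between -0.13 and 0.05 and overlapped.

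**Figure D4:**
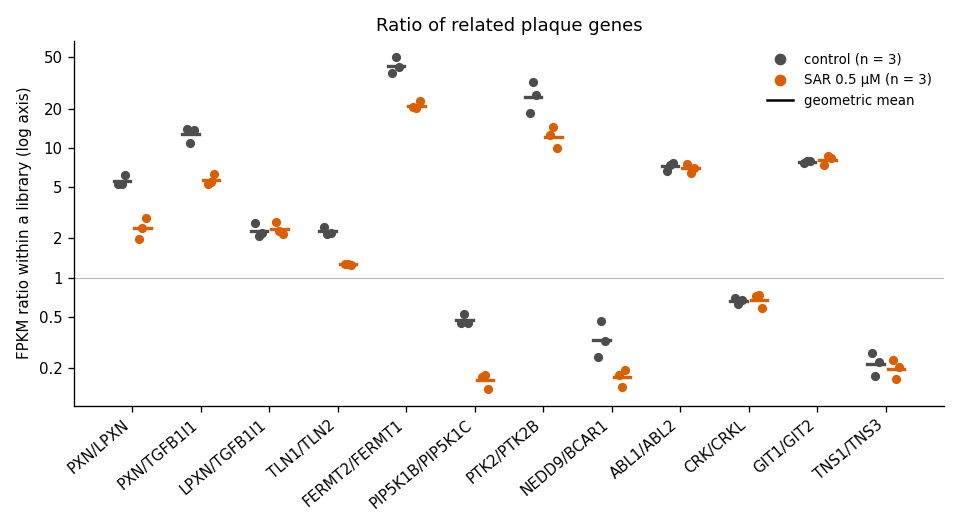
FPKM ratio of related plaque genes within each library (log axis), in control (grey, n = 3) and with SAR (orange, n = 3), with lines at geometric means. The ratio of PXN to LPXN goes from a geometric mean of 5.52 to 2.40, TLN1 to TLN2 from 2.27 to 1.26 and PIP5K1B to PIP5K1C from 0.472 to 0.162, while CRK to CRKL stays between 0.584 and 0.733 in all 6 libraries.

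The 9 genes below a mean of 0.5 FPKM were ITGA1, ITGA8, ITGA10, ITGA11, ITGB2, ITGB3, ITGB6, ITGB7 and TNS1, and they were not tested. ITGB7, an α4 partner of leukocytes, had 14, 7 and 5 reads in the controls and 0, 0 and 3 reads with SAR, and ITGB6, an epithelial αV partner, had 13, 2 and 2 against 1, 0 and 1. ITGB3, another αV partner, had 0.194 to 0.234 FPKM in control and 0.303 to 0.515 FPKM with SAR, but 51.6% of its exon bases are shared with another gene on the same strand. Control replicate 1 had the highest value of the 6 libraries in 8 of the 9 genes, against 32.2% of all 24025 genes below this minimum. ITGA10, for example, had 61 reads there and 3 to 10 in the other libraries. Differences between groups in these 9 genes were not assessed.

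Other genes of the adhesion plaque were given by counts, from a list of 72 genes apart from the 49. Of 64 tested, 9 were higher and 12 lower with SAR as deposited, and 3 higher and 21 lower after rescaling, with a median log2 fold change of -0.02 as deposited. These are 14.1% and 18.8% of the list as deposited, where 23.7% and 9.55% of all genes were called, and 4.69% and 32.8% after rescaling, where 13.8% and 15.5% were. Among called genes with a mean of 1 FPKM or more, the lowest were CAV1 (caveolin-1, -1.38), ARHGAP5 (-1.03) and TES (testin, a LIM protein, -0.95), and the highest DAB2 (an endocytic adaptor for integrins, 0.86), PHLDB2 (LL5β, 0.47) and EFS (a Cas family scaffold, 0.41). TES gave 17.8, 17.0 and 17.6 FPKM in control and 8.96, 8.87 and 9.09 FPKM with SAR. PHLDB2 and EFS did not pass after rescaling. VCL (vinculin) and ACTN1 (α-actinin-1), which join talin to actin, were among the lower genes, with log2 fold changes of -0.65 and -0.37.

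Of 42 genes for integrin ligands, 32 were tested, and 7 (21.9%) were higher and 7 (21.9%) lower, where 23.7% and 9.55% of all genes were, with a median log2 fold change of 0.06. After rescaling 7 (21.9%) were higher and 9 (28.1%) lower, where 13.8% and 15.5% of all genes were, with a median of -0.06. Among those called and averaging 1 FPKM or more, the lowest were SPP1 (osteopontin, -1.10), COL5A1 (-0.52) and TGFB1 (-0.51), and the highest COL2A1 (1.40), ICAM1 (0.92) and MFGE8 (an RGD ligand of αV receptors, 0.69). MADCAM1, the ligand of α4β7, had the largest log2 fold change in the list (1.70) from a low level of 0.293 ± 0.0107 FPKM in control. FN1 (fibronectin) averaged 135 ± 21.2 and 162 ± 24.6 FPKM with overlapping groups. Among laminin chains, LAMB1 was higher (0.57) and LAMC1 lower (-0.36).

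Of 12 Src family kinases and their regulators, 9 were tested, with a median log2 fold change of 0.27, where that of all genes was 0.12. After rescaling the list median was 0.15. Over all genes, 23.7% were higher and 9.55% lower as deposited. Counts for the list are left out, since 1 of its genes is not reported here. The directions below therefore cannot be read as particular to this list. Among those described here, FYN, MATK and CSK were higher, the last 2 of which encode kinases that phosphorylate the inhibitory tail tyrosine of Src family members, and YES1 and PAG1, a membrane adaptor of CSK, were lower. SRC averaged 8.06 ± 0.0577 FPKM in control and 7.25 ± 0.193 FPKM with SAR (SD, n = 3). Its log2 fold change of -0.15 did not pass (adjusted p = 0.0663 by limma) but passed after rescaling (-0.27, adjusted p = 0.0136).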

How the data were processed

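RNA was measured by paired-end sequencing of poly(A)-selected mRNA. The authors deposited FPKM for each gene and library, without pooling and with no scaling beyond the library total. The submitters' processing notes name HISAT2, Subread, featureCounts and DESeq2, with the build GRCh38.p13. Annotation release and strand setting are not given in the sources used here.

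Groups and replicate numbers came from the sample labels. Because FPKM are not counts, limma 3.58.1 in R 4.3.3 (lmFit, eBayes with trend) was run on log2(FPKM + 0.1) for genes whose mean reached 0.5 FPKM (16371 of them), with Benjamini-Hochberg adjustment over all of them and no replicate block. The main fit alone was also run on simulated counts with a fixed dispersion and no scaling shift between groups. That run does not show its accuracy on these data. Genes were called at an adjusted p under 0.05, alone or with an absolute log2 fold change above 1. Values as deposited are the reported ones. Rescaled values, voom on recovered reads, other filters, other pseudocounts and the omission of each library were alternatives.

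Whole reads behind the FPKM were recovered from the steps between values of each gene, to a tolerance of 0.01 reads, for 99.96% of genes. They gave the read numbers, and the library totals were inferred from the same values, so neither is a reported depth. Read numbers cover counting error only. The gene lengths so implied equalled the GENCODE 29 exon length in 59.2% of the 39023 genes found there. Symbols were available for 30235 of 40396 IDs. Gene positions and overlaps are those of GENCODE 29 on GRCh38.

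The 49 genes and the other lists were chosen with earlier results of these data known. All 49 are accounted for. Given in full were those past the fold threshold, the 6 lowest and 6 highest called genes averaging 1 FPKM or more with groups that did not overlap, and PTK2, PXN, ITGB1, TLN1, ABL1 and ABL2. From the plaque and ligand lists the 3 lowest and 3 highest called genes averaging 1 FPKM or more were named. TES values, VCL, ACTN1, MADCAM1, FN1, LAMB1, LAMC1 and the Src family genes were named after their values were seen, and 1 gene of the Src family list is not reported here.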

Additional observations from a re-analysis of the deposited data

How the results depend on the processing

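All 19 called genes kept their direction in each of the 15 alternatives that tested them, and 11 also remained past the adjusted p threshold in every one: ITGA4, ITGAV, ITGB1, ITGB5, ITGB8, PXN, NEDD9, TLN2, FERMT1, PIP5K1B and PIP5K1C. A pseudocount of 1 left 0 genes higher and 1 lower past the fold threshold, and a minimum mean of 1 FPKM left 1 lower, since ITGA4 then went untested. At adjusted p alone, 5 genes were higher without the filter on low values and 5 after quantile normalization, and 17 were lower after median-ratio rescaling. With 1 library left out, between 4 (without control replicate 2 or SAR replicate 2) and 9 genes were higher and between 7 (without control replicate 3) and 12 were lower. Voom on recovered reads, added after the data were seen, gave 10 higher and 13 lower. For the other plaque genes, 4 were higher with no filter, 3 after rescaling and 3 with quantile normalization, 21 were lower after rescaling, and with 1 library left out 4 to 10 were higher and 8 to 16 lower. Apart from median-ratio rescaling, the share of all genes called under each alternative is not given. These counts therefore cannot be read as particular to the adhesion genes. The cause of these shifts was not tested.

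The direction turned only in uncalled genes. After rescaling, ITGA3 (-0.0416), ITGA5 (-0.0408), DOCK1 (-0.109), ARHGEF7 (-0.0461) and ABL1 (-0.00719) were negative, as with quantile normalization were ITGA3 (-0.0605), DOCK1 (-0.0193), ARHGEF7 (-0.0157) and ABL2 (-0.0248). With 1 library left out, ITGA3 lay between -0.0874 (without control replicate 2) and 0.209, ITGB4 between -0.331 and 0.121 (without SAR replicate 1), BCAR1 between -0.280 and 0.0905 (without control replicate 1), DOCK1 between -0.0396 (without control replicate 1, negative also without SAR replicate 3) and 0.0442, and ARHGEF7 between -0.000467 (without SAR replicate 3) and 0.119. Control and SAR libraries with the same number did not deviate together (correlations of 0.073, 0.003 and 0.025), and control replicate 2 correlated best with SAR replicate 3 (0.067), so the numbers were not taken to pair the samples. With a replicate block, 6 genes were higher and 10 lower (PTK2B, ILK and TGFB1I1 no longer passed), and 1 and 2 with the fold threshold.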
